A study of Mus musculus with 14 samples.

Results

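Myc and genes of ribosome biogenesis, 34 genes in all, were followed in mouse CD4 T cells that had been polarised in culture with and without acetate, the smallest of the short chain fatty acids that gut microbes release. A gene belonged to the set when its symbol in the platform annotation was exactly that of a member, and of several probe sets the brightest on average over the 14 arrays was used. All 34 members were found, on 70 of the 45101 probe sets of the array. All 34 also lay above the filter on low signals and were among the 10916 genes tested out of 18194 with a probe set of a single symbol.

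The cells came from spleen, peripheral lymph nodes and mesenteric lymph nodes, and every culture received IL-2. Th17 cultures also received TGF-b1, IL-6, IL-1b, IL-23, IL-21 and TNF-a with antibodies against IL-4 and IFN-gamma, Treg cultures TGF-b1, and Th1 cultures IL-12 with an antibody against IL-4. Each kind of culture was grown as a control (acetate at 0 mM) or with acetate at 10 mM, labelled C2, on 3 and 3 arrays for Th17 and 2 and 2 arrays each for Treg and Th1. For the treated Treg and Th1 cultures the protocols write acetone where the design text writes sodium acetate, and culture lasted 5 days by the protocols and 6 to 7 days by the design text. Separate mice or cultures behind the arrays of a group are not stated, and the p-values therefore describe the spread between these arrays, which may be technical.

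Myc is a transcription factor that is induced when a T cell is activated and that raises the transcription of genes for growth, among them those that build ribosomes. Ribosomes are assembled in the nucleolus, where RNA polymerase I transcribes the ribosomal RNA precursor, small nucleolar ribonucleoproteins modify it, and assembly factors fold, cut and load it with ribosomal proteins to give a small and a large subunit. T cells build up this machinery as they leave rest and begin to divide.

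The CD4 T cell genes of a fixed marker list were present on every array, with a summed signal of 5530 to 11393 over 5 genes, and Cd3e ran from 409 to 959. In Treg cultures the sum was 10318 to 11393 in controls and 7154 to 8201 with acetate. In Th1 cultures it was 9589 to 9776 and 5738 to 7256, and in Th17 cultures 7110 to 8345 and 5530 to 7405, which overlapped. For the mean of the 3 subsets Cd3e (-0.55), Cd3g (-0.68), Cd3d (-0.57) and Cd4 (-0.72) were lower and Cd28 (0.45) higher, each at a limma adjusted p under 0.05. The part of this in the members' differences was not tested. Il17a was highest in Th17 cultures (598 to 716 in controls, 3186 to 5610 with acetate, at most 15.8 elsewhere), and Tbx21 in Th1 cultures (243 to 488). Foxp3 was highest in untreated Treg cultures (283 and 381), but with acetate it was only 52.2 and 66.0 there, which overlapped untreated Th17 cultures at 55.3 to 108. Other genes of these lists did not all follow. Cxcr3 of the Th1 list was higher in untreated Treg than untreated Th1 cultures (log2 difference 2.38, limma adjusted p = 0.014). Ifng (-0.48, 0.88) and Tbx21 (-0.68, 0.56) did not separate these 2 groups. Of the Treg list, Ikzf2 was higher in untreated Treg than untreated Th17 cultures and Il2ra lower (Th17 minus Treg -2.45 and 1.32, limma adjusted p = 1.34e-04 and 0.0074). Of the B cell list, Ighm ranged from 63.6 to 2700 and Cd79b from 9.79 to 76.8, while Ms4a1 was at most 9.01 and Cd79a at most 14.8. Of the macrophage and monocyte list, Cd68 ranged from 14.9 to 134, Csf1r from 15.6 to 55.3 and Adgre1 from 4.23 to 20.7, while Lyz2 was at most 13.3 and Itgam at most 12.8. The deposited signals were not on a common scale, with trimmed means from 53.2 to 116.0, and levels below are therefore signals after quantile normalization of log2(signal + 3). In bulk cultures fewer cells of a type and less RNA per cell cannot be told apart.

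Myc pairs with Max to bind the DNA hexamer CACGTG, the E-box, and the start regions of the members were searched for it because their signals moved together in the Th17 comparison described below. RefSeq promoter windows of GRCm38.p6, 250 bases before to 50 after the annotated start, were given for 28 of the 34 members. The motif reads the same on both strands and was found in the windows of 6 members. These are 21.4% of the 28, against 8.09% of 27025 genes with a window, and 3 of the 28 members had several windows. The sites are shown with up to 12 bases on either side, read along the gene, with the motif in capitals.
Nop2, chr6:125131811-125131840, + strand: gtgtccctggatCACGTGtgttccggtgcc
Utp20, chr10:88826765-88826789, - strand: cggcactaactaCACGTGaggaaaa
Pes1, chr11:3963965-3963994, + strand: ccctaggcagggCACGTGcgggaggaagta
Mybbp1a, chr11:72441355-72441376, + strand: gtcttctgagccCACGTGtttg
Tsr1, chr11:74898092-74898121, + strand: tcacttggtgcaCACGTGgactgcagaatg
Wdr43, chr17:71616220-71616249, + strand: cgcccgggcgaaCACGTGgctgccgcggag
In 5 of these the motif began 3 to 41 bases after the annotated start, in the transcribed region, and in Nop2 it began 60 bases before it, at position -60. The median log2 difference with acetate in Th17 cultures was -0.78 over the 6 genes with the motif and -0.73 over the 22 without it. A match is a description of these letters and does not show binding.

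With acetate, Myc and 7 members that serve ribosomal RNA synthesis, its modification and the assembly of both subunits fell in Th17 cultures. The 8 lower members were Myc, Dkc1, Heatr1, Mybbp1a, Rrp9, Utp20, Gnl3 and Ncl, and no member was called higher. A gene was called at a limma adjusted p under 0.05, and 8.66% of all 10916 genes (945) were called lower and 11.7% (1276) higher. Without normalization, on the deposited signals, 1460 genes were lower and 467 higher, and 20 members were lower. The log2 difference was negative for 32 members and positive for 2, against 49% and 51% of all genes, and its median was -0.74 against 0.011 over all genes. At an unadjusted p under 0.05, 20 members were lower, against 15.5% of all genes. All 3 acetate arrays lay below all 3 control arrays in 23 members, against 19.3% of all genes.

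**Figure D1:**
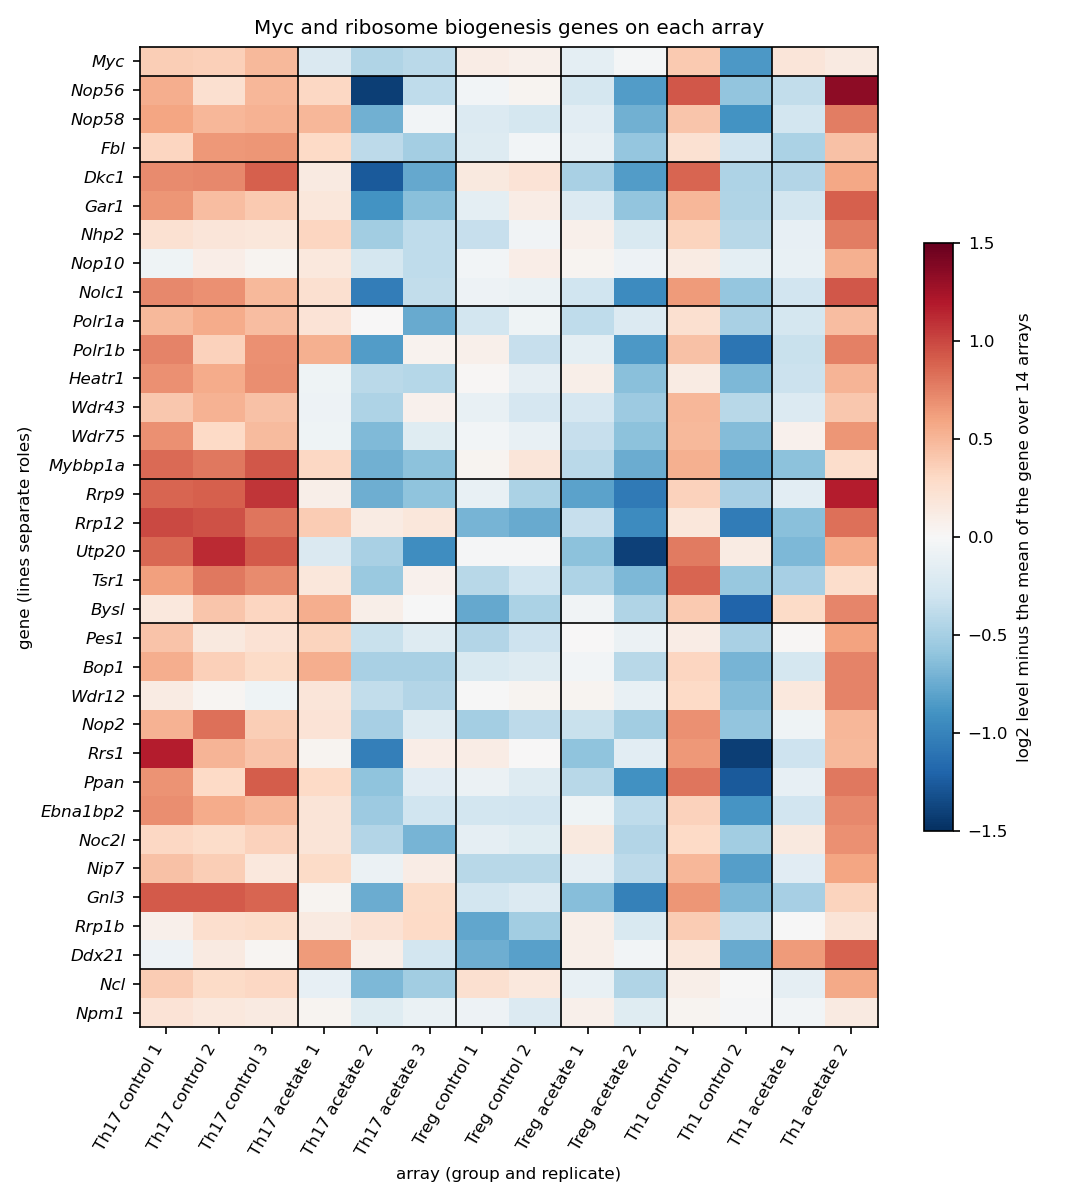
Colour gives the log2 level of each of the 34 genes (rows, grouped by role) on each of the 14 arrays (columns), as a difference from that gene's mean over all arrays, in log2 units. The 3 Th17 control arrays are high for most genes, Th17 acetate 1 lies between them and the other two, and the arrays within each Th1 group differ from each other.

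Myc had signals of 1678, 1669 and 1828 in the Th17 control arrays and of 1117, 950 and 983 in the acetate arrays. Every acetate array lay below every control array. Mean signals were 1725 ± 89.4 and 1017 ± 88.3 (SD, n = 3 each), which on the log2 scale is -0.76 ± 0.22 (SE, limma adjusted p = 0.030). Myc missed the threshold without any 1 of Th17 controls 1, 2 or 3 (adjusted p = 0.073, 0.071 and 0.094) or Th17 acetate 2 or 3 (0.090 and 0.066), and when arrays were scaled to the same trimmed mean (0.086).

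Among the genes of RNA polymerase I and early precursor transcription, all 6 had negative differences and 2 were called. Over all genes the shares were 49% negative and 8.66% called lower. Heatr1 encodes a factor that links transcription of the precursor to its first processing. Its signals were 217, 199 and 218 in Th17 controls and 128, 99.9 and 98.3 with acetate, without overlap, a log2 difference of -0.95 ± 0.26 (adjusted p = 0.022). Mybbp1a encodes a nucleolar protein that binds Myb and takes part in ribosomal RNA production. Its signals were 1145, 1097 and 1215 in controls and 785, 383 and 412 with acetate, again without overlap, a difference of -1.20 ± 0.34 (adjusted p = 0.024). Heatr1 and Mybbp1a each kept the call in 16 of 21 alternatives and lost it without any 1 of the Th17 controls or Th17 acetate 2 or 3. Polr1a, the largest subunit of RNA polymerase I, averaged 116 ± 4.10 and 73.5 ± 24.1 and was not called (-0.69 ± 0.27, adjusted p = 0.090), and 1 of its other probe sets above the filter had the opposite sign (0.11). Polr1b (-0.68), Wdr43 (-0.61) and Wdr75 (-0.79) were not called.

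All 5 genes of the box H/ACA ribonucleoproteins, which convert uridines of ribosomal RNA to pseudouridine, had negative differences. Of these 1 was called, against 8.66% of all genes. Dkc1 encodes the pseudouridine synthase itself. It had signals of 1151, 1162 and 1309 in Th17 controls and 768, 291 and 411 with acetate. Acetate 1 lay well above the other two acetate arrays and all 3 lay below the controls, with a difference of -1.41 ± 0.37 (adjusted p = 0.018). The call was lost without Th17 control 3 or Th17 acetate 2. The other core proteins and the chaperone Nolc1 were not called, and their differences ran from -1.02 in Nolc1 and -0.95 in Gar1 to -0.38 in Nhp2 and -0.19 in Nop10. None of the 3 genes of the box C/D ribonucleoproteins, which methylate ribosomal RNA, was called. Of these Fbl, the methyltransferase, averaged 1629 ± 204 in controls and 995 ± 319 with acetate (-0.75 ± 0.26, adjusted p = 0.056), and Nop56 and Nop58, the scaffold proteins, had differences of -0.92 and -0.63.

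Utp20 and Rrp9, which belong to the complex that first processes the small subunit, gave the largest differences of the small subunit group. Utp20 had signals of 151, 181 and 157 in Th17 controls and 70.1, 57.5 and 41.6 with acetate. Every acetate array lay far below the lowest control, and the difference was -1.51 ± 0.31 (adjusted p = 0.0051). Rrp9, a protein of the U3 ribonucleoprotein, had signals of 297, 303 and 343 in controls and 172, 96.1 and 105 with acetate. The arrays did not overlap, acetate 1 was the highest of the treated ones, and the difference was -1.36 ± 0.32 (adjusted p = 0.011). Tsr1 (-0.82), Rrp12 (-0.69) and Bysl (-0.089), factors of later steps and of export, were not called.

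Of the 12 factors of the large subunit 1 was called lower, a share near the 8.66% of all genes. Gnl3, or nucleostemin, a nucleolar GTPase, had signals of 852, 852 and 822 in Th17 controls and 463, 266 and 548 with acetate, without overlap, a difference of -1.04 ± 0.33 (adjusted p = 0.040). It kept its call in 11 of 21 alternatives, and lost it without any 1 of the Th17 controls, Th17 acetate 1 or 2 or any 1 of the Treg arrays, and with the replicate block. The other negative differences ran from -1.0005 in Rrs1 to -0.22 in Nip7, and included Nop2, a ribosomal RNA methyltransferase (-0.74), and Pes1, Bop1 and Wdr12, which form 1 complex (-0.33, -0.54 and -0.24). Ddx21, an RNA helicase, and Rrp1b had differences of 0.12 and 0.020 and were not called. The other probe sets of these last 2 genes had the opposite sign in Th17 cultures, at -0.79 for Ddx21 and at -0.11 for both of Rrp1b.

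Of the abundant nucleolar proteins, Ncl, or nucleolin, had signals of 3303, 3094 and 3145 in Th17 controls and 2320, 1581 and 1771 with acetate. The arrays did not overlap, and the difference was -0.77 ± 0.18 (adjusted p = 0.0089). Npm1, or nucleophosmin, averaged 6317 ± 160 and 5327 ± 420 and was not called (-0.25 ± 0.098, adjusted p = 0.091), although its arrays did not overlap either. Utp20, Rrp9 and Ncl kept their call in all 21 alternatives run, which included every array left out.

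The number of lower members in Th17 cultures varied with single arrays. It was 4, 4 and 3 without Th17 controls 1, 2 and 3, where 541, 577 and 513 of all genes were lower. Without Th17 acetate 1, 2 and 3 it was 13, 3 and 5, where 843, 585 and 902 of all genes were lower. In the main model 945 of all genes were lower. The members' count was larger without any 1 of the Th1 arrays, which enter only through the shared spread, and so was the count over all genes. Th17 acetate 1 was the treated array nearest to the controls: it exceeded acetate 2 in 33 members and acetate 3 in 30, by medians of 0.68 and 0.53 on the log2 scale. The median of the gene-centred levels of the members was 0.55, 0.44 and 0.47 on the Th17 controls and 0.19, -0.50 and -0.33 on the acetate arrays. On the same array the median of 24 cell cycle genes was 0.95, against -0.60 and -0.42 on the other two acetate arrays and -0.59 to -0.76 on the controls. Without Th17 acetate 1 the members' count was larger.

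Some marker lists of other cell types moved with acetate in Th17 cultures too, and a sign of RNA quality was raised on acetate arrays 2 and 3. The summed signal of 4 B cell genes was 850 to 1418 in controls and 274 to 778 with acetate, and of its 2 tested genes Ighm fell (-1.30) and Cd79b was not called (0.52). For 6 macrophage and monocyte genes the sum was 72.4 to 79.0 and 107 to 187, and of 3 tested genes Cd68 rose (2.10) while Csf1r (-0.36) and Adgre1 (-0.32) were not called. The 2 CD8 T cell genes summed to 51.6 to 179 and 180 to 332, and Cd8b1 rose (1.78, adjusted p = 0.0014) while Cd8a was not called (0.55). The 2 mast cell genes summed to 67.4 to 95.1 and 16.3 to 29.0, and Kit fell (-1.57, adjusted p = 0.0079) while Cpa3 was not called (-1.42). These 4 sums did not overlap between controls and acetate, while those of the NK cell, dendritic cell and erythroid lists did. The NK cell sum was 822 to 1263 and 298 to 1016, and the dendritic cell sum 10.5 to 29.5 and 8.90 to 22.4. The ratio of 3-prime to 5-prime signal of Actb, which rises as RNA is degraded, was 1.20, 1.24 and 1.21 in controls and 1.21, 1.38 and 1.32 with acetate, so the acetate arrays low in the members, 2 and 3, lay above every control and acetate 1 did not. For Gapdh it was 0.986, 1.07 and 1.03 in controls and 1.08, 1.03 and 0.992 with acetate. Of the Th17, Treg and Th1 lists, Il17a (2.69), Cxcr3 (2.28) and Tbx21 (1.42) rose with acetate in Th17 cultures and Foxp3 fell (-2.34). Ccr6, Il2ra, Ikzf2 and Ifng were not called. The part of the cell cycle genes, of all these markers and of RNA quality in the members' difference was not tested.

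**Figure D2:**
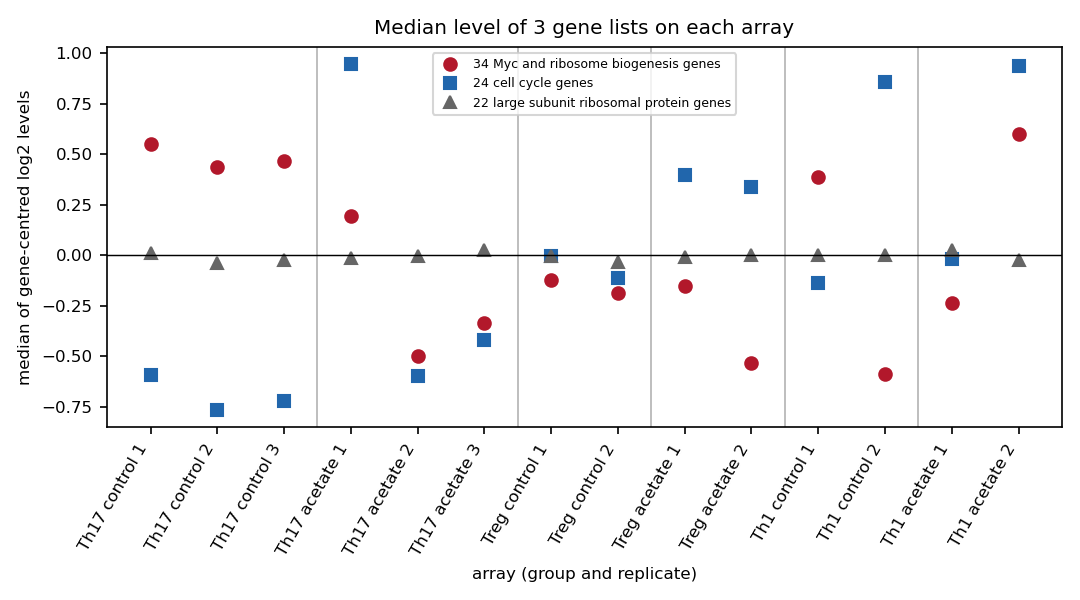
Each point is the median gene-centred log2 level of a gene list on 1 array, for the 34 members, 24 cell cycle genes and 22 ribosomal protein genes of the large subunit. The members are highest on the Th17 controls and on 1 array of each Th1 group, while the ribosomal protein medians stay close to 0 on this quantile normalized scale.

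**Figure D3:**
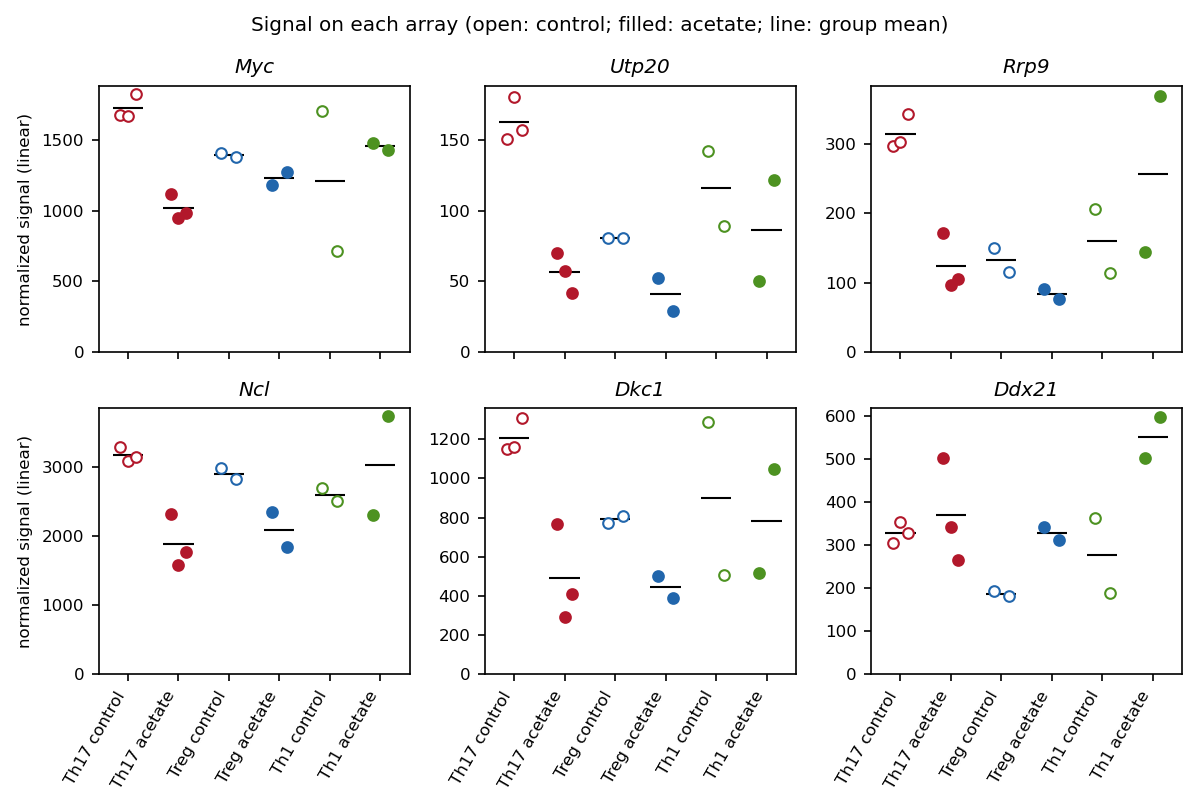
Normalized signal on a linear axis from 0 for Myc, Utp20, Rrp9, Ncl, Dkc1 and Ddx21 on each array, with control arrays open, acetate arrays filled and group means as lines. In Th17 cultures the first 5 genes show no overlap between control and acetate arrays, while Ddx21 does.

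In Treg cultures no member was called in either direction, against 5.45% of all genes lower (595) and 7.07% higher (772). Unnormalized, 298 genes were lower and 252 higher, with no member called. At an unadjusted p under 0.05, 2 members were higher and 2 lower, fewer than the 15% and 12% of all genes. Of the 34 members 23 had a negative difference (47.4% of all genes), with a median of -0.21 against 0.034 over all genes. Both acetate arrays lay below both controls in 15 members (29.6% of all genes) and above them in 5 (35.1%). Marker lists of other cell types differed here as well. The B cell sum was 2436 to 2783 in controls and 907 to 1634 with acetate. The NK cell sum was 1182 to 1668 and 713 to 873. The macrophage and monocyte sum was 106 to 136 and 183 to 212. The CD8 T cell sum was 196 to 217 and 260 to 268. The dendritic and mast cell sums overlapped, and no tested gene of these lists was called. The part of these markers in the members' differences was not tested.

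Myc had signals of 1409 and 1378 in the untreated Treg arrays and 1180 and 1277 with acetate. The acetate arrays were lower, with a log2 difference of -0.18 ± 0.27 (adjusted p = 0.73). Utp20, whose control signals were 80.5 and 80.9 and acetate signals 52.4 and 29.1, had the most negative difference at -0.99 ± 0.38 (adjusted p = 0.11). Its acetate arrays also differed from each other more than the controls did. Ncl had signals of 2987 and 2830 against 2349 and 1848 with acetate, without overlap (-0.48 ± 0.22, adjusted p = 0.17). Dkc1 had 775 and 808 against 501 and 391 (-0.83 ± 0.45, adjusted p = 0.27). Mybbp1a had 653 and 717 against 478 and 379 (-0.68 ± 0.41, adjusted p = 0.32). Each of these 4 genes was lower on both acetate arrays.

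Large subunit factors lay on both sides of 0 in Treg cultures, 7 above and 5 below. Ddx21 had signals of 193 and 181 in controls and 342 and 313 with acetate, without overlap, a difference of 0.80 ± 0.30 (adjusted p = 0.098). Rrp1b, a nucleolar protein of large subunit precursors, had 199 and 237 against 365 and 293, a difference of 0.58 ± 0.22 (adjusted p = 0.10). Both of its other probe sets were positive too, at 1.07 and 0.58, whereas that of Ddx21 was at -0.54. With the mean of all probe sets of a gene Rrp1b was called higher (0.75, adjusted p = 0.027). Without Th1 control 1 or 2 some members were called higher, and so were more of all genes. Without Th1 acetate 1 or 2 a member was called lower, and so were more of all genes. Fbl averaged 1025 ± 74.9 and 888 ± 203 (SD, n = 2 each), Polr1a 71.2 ± 7.66 and 65.2 ± 5.62, and Npm1 5119 ± 335 and 5445 ± 704, with overlapping arrays in all 3.

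In Th1 cultures no member was called either, against 1.91% of all genes lower (209) and 2.07% higher (226). Unnormalized, 45 genes were lower and 177 higher, and 1 member was higher. At an unadjusted p under 0.05, 2 members were higher and 0 lower, fewer than the 11.4% and 10.6% of all genes. The sign differed from that in the other cultures: 29 of 34 differences were positive (52.6% of all genes), with a median of 0.37 against 0.030 over all genes. The arrays overlapped in 33 of the 34 members, and all acetate arrays were higher in 1 (22.1% of all genes) and lower in 0 (21%).

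The exception was Ddx21, with signals of 364 and 190 in Th1 controls and 504 and 598 with acetate. Both acetate arrays were higher, with a difference of 1.05 ± 0.30 (adjusted p = 0.064), and its other probe set had the same sign at 0.46. Myc had signals of 1705 and 717 in controls and 1478 and 1433 with acetate. The controls lay on either side of the acetate arrays, and the difference of 0.39 ± 0.27 was not called (adjusted p = 0.43). It was 1.02 without Th1 control 1 (adjusted p = 0.0098) and -0.23 without Th1 control 2.

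Bysl, a small subunit factor, had signals of 331 and 108 in Th1 controls and 308 and 423 with acetate (0.92 ± 0.39, adjusted p = 0.19). Wdr12 had 201 and 103 against 182 and 275 (0.62 ± 0.30, adjusted p = 0.24). Its partner Pes1 had 312 and 206 against 291 and 441 (0.49 ± 0.26, adjusted p = 0.29). In all 3 genes control 1 lay above acetate 1, and acetate 2 was the highest array. Noc2l, a large subunit factor, had 264 and 148 against 238 and 344 (0.53 ± 0.32, adjusted p = 0.36). Rrp9 had 205 and 113 against 145 and 368 (0.59 ± 0.40, adjusted p = 0.41). The order of the 4 arrays was the same in these 2 genes as in Wdr12 and Pes1.

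The order within each Th1 group ran through the set. Th1 control 1 exceeded Th1 control 2 in 34 of 34 members, with a median log2 difference of 1.08, and Th1 acetate 2 exceeded acetate 1 in 33, with a median of 0.81 in size. The median of the gene-centred levels was 0.39 and -0.59 on the Th1 controls and -0.24 and 0.60 with acetate. The spread within each Th1 group was therefore larger than the median acetate difference of 0.37. Without Th1 control 1 some members were called higher, and so were more of all genes. Without Th17 acetate 1 there was 1 member called higher, beside 358 of all genes (226 in the main model). The cell cycle median was -0.14 and 0.86 on the Th1 controls and -0.02 and 0.94 with acetate, so among the controls the array low in the members was high in cell cycle genes, and with acetate the array high in the members was high in both. The Actb ratio was 1.28 and 1.40 on the controls and 1.27 and 1.10 with acetate, higher in each group on the array lower in the members, and its part was not tested. The B cell sum was 563 to 730 on Th1 controls and 106 to 111 with acetate. Of its tested genes Ighm fell (-2.96, limma adjusted p = 0.0074) and Cd79b was not called (-0.17). The NK cell sum was 293 to 295 and 308 to 506, and Klrd1 was not called (0.43). The macrophage, CD8 T cell, dendritic cell, mast cell and erythroid sums overlapped. The part of these markers was not tested either. Group means were 1101 ± 276 and 1149 ± 500 for Fbl, 76.3 ± 27.7 and 89.5 ± 32.5 for Polr1a, 2606 ± 127 and 3032 ± 1021 for Ncl, and 5677 ± 142 and 5831 ± 495 for Npm1 (control and acetate, SD, n = 2 each). Each of these 4 genes had overlapping arrays and a difference smaller than its standard error, from 0.013 in Fbl to 0.22 in Polr1a.

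**Figure D4:**
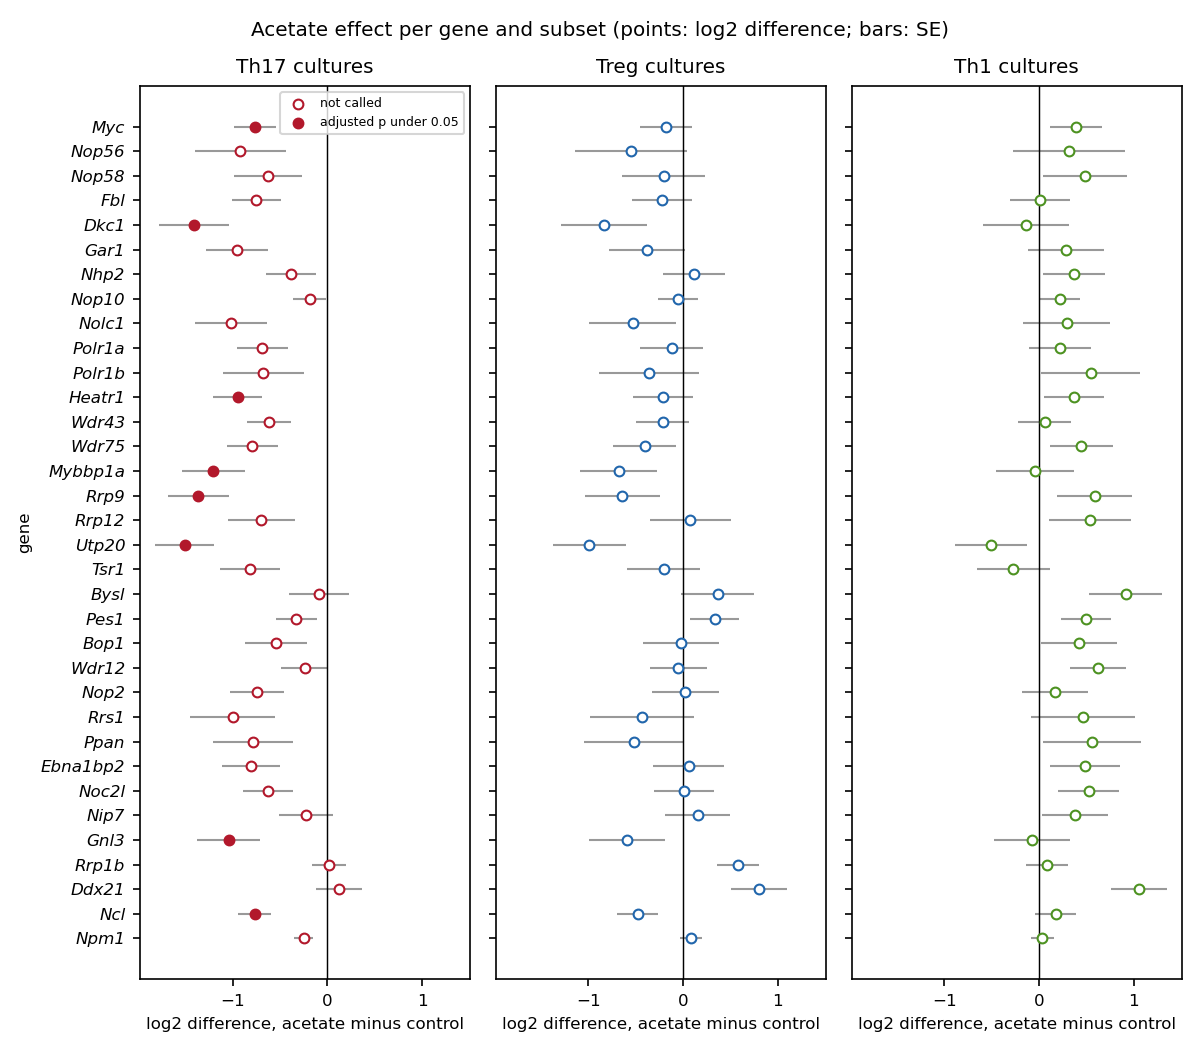
Points are log2 differences between acetate and control for the 34 genes in Th17, Treg and Th1 cultures, bars are standard errors, and filled points are called at an adjusted p under 0.05. Of the 34 points 32 lie below 0 in Th17 cultures, 23 in Treg cultures and 5 in Th1 cultures, and only Th17 cultures hold filled points.

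Whether the acetate difference itself depended on the kind of culture was asked with limma's F test over the 3 differences. No member passed, against 0.797% of all genes (87), while at an unadjusted p under 0.05 there were 7 of 34 members and 14.6% of all genes (1595). The smallest adjusted p-values were 0.17 for Rrp9, 0.23 for Ncl, 0.25 for Myc, 0.25 for Heatr1, 0.31 for Wdr75 and 0.33 for Noc2l. These genes had negative differences in Th17 cultures and positive ones in Th1 cultures. Heatr1 had signals of 136 and 121 in Treg controls and 142 and 85.9 with acetate, and 145 and 82.4 in Th1 controls and 106 and 192 with acetate, with overlap in both. Wdr75, which acts beside Heatr1, had 223, 170 and 191 in Th17 controls and 131, 85.2 and 121 with acetate. In Treg cultures it had 133 and 126 against 107 and 88.3, and in Th1 cultures 194 and 86.2 against 144 and 219. Its arrays overlapped in Th1 cultures only. Noc2l had 266, 260 and 273 against 245, 156 and 131 in Th17 cultures, and 194 and 188 against 236 and 157 in Treg cultures.

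The difference in Th17 cultures was below that in Th1 cultures for 34 of 34 members, against 49.3% of all genes, with a median gap of -1.003. At an unadjusted p under 0.05, 15 gaps were below 0 (6.65% of all genes) and 0 above it (8.04%), and 0 passed after adjustment, against 0 of all genes lower and 0.0366% higher. The gap to Treg cultures was also negative in 34 of 34 and positive in 0, against 50.1% and 49.9% of all genes, with a median of -0.52. None passed, against 0.284% of all genes lower and 0.192% higher, and 0 had an unadjusted p under 0.05 in either direction, against 5.27% lower and 4.75% higher. The Th17 arrays enter both gaps, so the 2 counts are not independent. Members also moved together between arrays of the same group, as Th1 control 1 exceeded Th1 control 2 in 34 of 34. The 34 signs are therefore not independent results. The largest gap to Th1 cultures was that of Rrp9, at -1.95 ± 0.51 (adjusted p = 0.15). For the F test, 2 members passed without Th1 control 1, where Myc had an adjusted p of 0.0041, and 2 without Th1 acetate 1, where Rrp9 had 0.017 and Ncl 0.028. Unnormalized signals gave 1, Rrp9 (0.047).

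Averaged over the 3 kinds of culture with equal weight, 1 member was higher with acetate and 4 were lower, against 17.6% (1925) and 14.2% (1545) of all genes. A count of 1 higher is below the first share and 4 lower is near the second. The difference was negative in 27 members, against 47.3% of all genes. On the deposited signals 1288 genes were lower and 1017 higher. Utp20 had a mean difference of -1.001 ± 0.21 (adjusted p = 0.0029), Dkc1 of -0.79 ± 0.25 (0.026), Mybbp1a of -0.64 ± 0.22 (0.043) and Ncl of -0.36 ± 0.12 (0.034). Utp20 had signals of 143 and 89.6 in Th1 controls and 50.4 and 122 with acetate, Dkc1 1290 and 508 against 515 and 1050, Mybbp1a 923 and 362 against 414 and 765, and Ncl 2696 and 2517 against 2310 and 3754. In all 4 the Th1 arrays overlapped, and Ncl was the only one with a positive Th1 difference (0.18). The call of Ncl for this mean was lost in most alternatives, among them averaged probe sets (-0.20, adjusted p = 0.38), trimmed mean scaling (-0.24, 0.14) and the deposited signals (-0.30, 0.19). Gnl3 (-0.57 ± 0.22, adjusted p = 0.064) was not called, with Treg signals of 371 and 390 against 287 and 220 and Th1 signals of 710 and 280 against 318 and 568. The count of lower members was 2 without Th17 control 1, 2 or 3 or Th17 acetate 2, and 1 without Treg control 1 or 2, Treg acetate 2, Th1 control 1 or Th1 acetate 1. It was 10 without Th1 control 2 and 7 without Th1 acetate 2.

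The higher member was Ddx21, at 0.66 ± 0.16 (adjusted p = 0.0076). In Th17 cultures its signals were 306, 354 and 328 in controls and 502, 343 and 266 with acetate, which overlapped, so its mean difference came from the Treg and Th1 arrays given above. Its other probe set went the other way in Th17 and Treg cultures, and with the mean of both the call was lost (0.19, adjusted p = 0.43). Without Th1 control 1 there were 3 higher members. For Myc the mean difference was -0.18 ± 0.15 (adjusted p = 0.38), which became 0.02 without Th1 control 1 and -0.39 without Th1 control 2 (adjusted p = 0.0026).

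Other genes of the same pathways, taken from lists of assembly factors outside the 34, gave medians of the same sign and smaller size in Th17 cultures. Of 49 other small subunit factors 11 fell and 1 rose, against 8.66% and 11.7% of all genes, and the median was -0.40. Those with the smallest p were Rrp36 (-0.59), Bms1, a GTPase of the small subunit processome (-0.65), Utp18 (-0.74) and, in the other direction, Utp14a (0.53), which was not called on the deposited signals (0.17, adjusted p = 0.66). Of 49 other large subunit factors 5 fell, a share close to the 8.66% of all genes, and 0 rose, with a median of -0.41. Among these Mdn1, the giant ATPase that strips factors from large subunit precursors, fell from 187 (146 to 210) to 60.7 (51.5 to 73.9), a difference of -1.58 ± 0.21 (adjusted p = 4.71e-04). Gnl3l, a relative of Gnl3 (-0.79), Rrp15 (-1.62) and the helicase Ddx18 (-1.01) fell as well. Of 11 genes of the RNA exosome, which trims the precursor, 4 fell, namely Exosc10, Exosc8, Exosc7 and Exosc1 (-0.64, -0.53, -0.75 and -0.75), with a median of -0.53. With trimmed mean scaling Exosc8 lost its call (adjusted p = 0.054), as did the small subunit factors Ddx3x (0.082) and Emg1 (0.15). Emg1 also lost it on the deposited signals (0.054). The number of lower genes in these 3 lists was 1 to 4 each without any 1 of Th17 controls 1 to 3 or Th17 acetate 2 or 3. Without any 1 of the Treg arrays 6 or 7 small subunit factors were lower. Without either Th1 control 10 large subunit factors were lower, and without Th17 acetate 1 there were 8.

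The RNA polymerase I machinery outside the 34 was mixed in Th17 cultures, with 2 of 15 higher and 3 lower, against 11.7% and 8.66% of all genes. Ubtf, the factor that activates ribosomal DNA, fell from 365 (356 to 383) to 140 (112 to 169), at -1.38 ± 0.25 (adjusted p = 0.0025), and Znhit6 by 0.95. Taf1d, a subunit of the promoter selectivity factor (1.03), and Polr1d, a subunit that RNA polymerases I and III share (0.53), rose. Neither rise was called on the deposited signals (0.67, adjusted p = 0.12, and 0.31, adjusted p = 0.32), while Ubtf, Znhit6 and Taf1a remained lower. In Treg cultures Ubtf fell from 287 to 115 (-1.29 ± 0.31, adjusted p = 0.017), and Taf1d rose (0.93), a call lost on the deposited signals (adjusted p = 0.30) and with trimmed mean scaling (0.070). Of 32 other Myc target genes 4 fell and 1 rose in Th17 cultures, against 8.66% and 11.7% of all genes, with a median of -0.31. Shmt2, a mitochondrial enzyme of serine and folate metabolism, fell from 1178 to 468 (-1.36), and Mthfd2 of the same pathway by 0.90. The arginine methyltransferase gene Prmt3 fell by 0.76 and the kinase gene Cdk4 by 0.51, while Paics of purine synthesis rose (0.55), though not on the deposited signals (0.30, adjusted p = 0.34).

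Of 16 tested partners and antagonists of Myc, 2 were called higher in Th17 cultures, against 11.7% of all genes. In Treg cultures 3 were called lower (5.45% of all genes) and in Th1 cultures 2 (1.91%). Mxd4, which competes with Myc for Max, fell with acetate in Treg cultures from 379 (345 to 413) to 109 (102 to 116), a difference of -1.77 ± 0.40 (adjusted p = 0.012). In Th1 cultures it fell from 184 (149 to 219) to 54.0 (30.2 to 77.9), at -1.83 ± 0.40 (adjusted p = 0.029). Mxd1 (-1.31) and Mycbp2 (-0.80) also fell in Treg cultures, and Mnt (-0.82) in Th1 cultures. These 3 calls were lost on the deposited signals (adjusted p = 0.060, 0.079 and 0.32), that of Mxd1 also with trimmed mean scaling (0.051), while Mxd4 kept its call under both in both cultures. In Th17 cultures Mxd3 (1.25) and Mycbp (0.71) rose, the latter not on the deposited signals (0.35, adjusted p = 0.36).

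Ribosomal protein genes themselves lay near the top of the intensity scale, where arrays are hard to tell apart, with median percentiles of 99.7 and 99.8 among all genes tested. Their medians with acetate were 0.021 over 22 genes of the large subunit and -0.019 over 21 of the small subunit in Th17 cultures, which became 0.29 and 0.26 when arrays were scaled to the same trimmed mean. In Th17 cultures Rpl14 (0.78), Rpl27a (0.70) and Rps6 (0.44) rose and Rpl12 fell by 1.00. The rises were 0.43, 0.35 and 0.091 on the deposited signals and none was called (adjusted p = 0.25, 0.40 and 0.83), that of Rps6 was also lost with trimmed mean scaling (0.057), and Rpl12 remained lower (-1.37). Rpl14 also rose in Treg cultures (1.25), and Rps6 in Th1 cultures (0.79), both without a call on the deposited signals (adjusted p = 0.065 and 0.061). Of 24 cell cycle genes 7 rose and 0 fell in Th17 cultures, against 11.7% and 8.66% of all genes, with a median of 0.58. The 7 included the mitotic kinase genes Bub1 (1.95), Cdk1 (1.67), Aurka (1.76) and Aurkb (1.52). Without Th17 acetate 1, 2 rose and 1 fell, and the median was 0.14. Without Th17 controls 1, 2 and 3, in turn, 3, 3 and 2 rose.

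In Treg cultures few genes of these lists were called. Of the small subunit factors Riok3 (0.90) and Utp14a (0.66) rose and Ddx3x fell by 0.79, and of the large subunit factors Nol12 rose (0.96) and Mdn1 fell by 0.92. Of the other Myc targets Ldha (0.43) and Eif4e (0.68) rose. On the deposited signals Mdn1 alone of these genes kept its call, and with trimmed mean scaling Eif4e and Ddx3x lost theirs. In Th1 cultures Utp14a (0.67) and Tfrc, the transferrin receptor gene (0.83), rose, Utp14a not on the deposited signals (adjusted p = 0.091). The lists' medians in Th1 cultures were 0.26 for small subunit factors, 0.24 for large subunit factors, 0.16 for the exosome and 0.28 for the other Myc targets, against 0.030 over all genes.

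**Figure D5:**
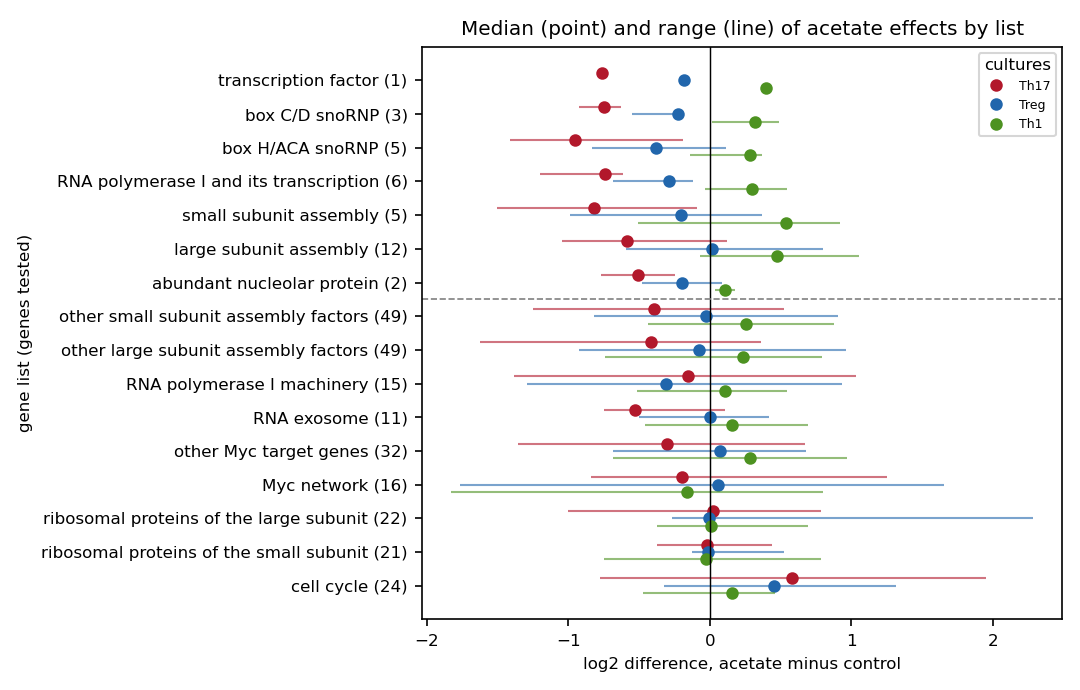
Points are the median and lines the range of log2 differences between acetate and control for the members by role (above the dashed line) and for other gene lists (below it), in Th17, Treg and Th1 cultures. In Th17 cultures the medians of all 7 member roles are negative and that of the cell cycle list is positive at 0.58.

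Among untreated cultures, most members had higher levels in Th17 than in Treg. Of 34 members 3 were called higher (Rrp12, Rrp9 and Rrp1b) and 0 lower, against 5.32% (581) and 6% (655) of all genes. On the deposited signals 1328 genes were higher and 228 lower, and 19 members were higher. The difference was positive in 33 members (49.8% of all genes) and negative in 1 (50.2%), with a median of 0.69. There were 17 members higher at an unadjusted p under 0.05 (12.5% of all genes). Rrp12, which takes part in subunit export, had signals of 114, 110 and 99.3 in Th17 controls and 33.1 and 31.7 in Treg controls, at 1.64 ± 0.39 (adjusted p = 0.016). Rrp9 had the Th17 signals given above against 149 and 115, at 1.24 ± 0.36 (adjusted p = 0.042). Rrp1b had 361, 408 and 415 against 199 and 237, at 0.85 ± 0.20 (adjusted p = 0.015). The groups did not overlap in these 3 genes. Nop2, with 418, 518 and 378 against 203 and 221, was not called (1.02 ± 0.32, adjusted p = 0.056), and neither was Myc (0.31 ± 0.25, adjusted p = 0.48).

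These counts against Treg cultures moved with single arrays. No member was called without Th17 control 2, and 1 was called without Th17 control 1 or 3. Of all genes 314, 408 and 358 were higher in these 3 fits, against 581 in the main model. The calls were also lost without Treg control 1 or 2, where fewer of all genes were called higher. There were 5 without Th17 acetate 1, where 698 of all genes were higher. Without any 1 of the Th1 arrays more members and more of all genes were called higher.

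Against untreated Th1 cultures, untreated Th17 cultures had the higher mean in 34 of 34 members (49.8% of all genes) and the lower in 0 (50.2%), with a median of 0.57 against -0.0018 over all genes, yet 0 were called, against 2.99% (326) of all genes higher and 3.62% (395) lower. On the deposited signals 2903 genes were higher and 122 lower, the median of all genes was 0.62 and 28 members were called. At an unadjusted p under 0.05, 7 members were higher (10.3% of all genes). The untreated Th1 arrays were themselves as one-sided, with Th1 control 1 above Th1 control 2 in 34 of 34 members, by a median of 1.08. The 34 signs are therefore not independent results. Rrp12 had Th1 signals of 62.7 and 25.4, a difference of 1.36 ± 0.39 (adjusted p = 0.060). Heatr1 differed by 0.93 ± 0.29 (adjusted p = 0.078), Rrp9 by 1.02 ± 0.36 (0.11), Mybbp1a by 0.99 ± 0.38 (0.14) and Myc by 0.64 ± 0.25 (0.15). Myc on Th1 control 1, at 1705, lay within the range of the Th17 controls, and on Th1 control 2, at 717, below it. Without Th1 control 1 the difference of Myc was 1.26. More members were called higher without Th1 control 1, Th1 acetate 1 or Th1 acetate 2, and so were more of all genes.

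Untreated Treg and Th1 cultures gave 0 called members in either direction, against 2.85% (311) of all genes higher and 2.13% (233) lower in Treg. Unnormalized, 203 genes were higher and 62 lower. Only 1 member was lower at an unadjusted p under 0.05 (9.11% of all genes) and 0 higher (9.39%). The median was -0.068 against -0.014 over all genes, with 23 of 34 negative (51.4% of all genes). On the deposited signals it was 0.05 against 0.19 over all genes, with 14 of 34 negative (32.5% of all genes). Rrp1b was lower in Treg cultures by -0.66 ± 0.22 (adjusted p = 0.11), with Th1 signals of 446 and 267. Ddx21 differed by -0.48 ± 0.30 (adjusted p = 0.43). Nop2, with Th1 signals of 470 and 192, differed by -0.50 ± 0.35 (0.50), and Tsr1, with 165 and 180 in Treg and 410 and 148 in Th1 controls, by -0.51 ± 0.39 (0.54). The Th1 controls bracketed the Treg controls in Nop2, Tsr1 and Myc (0.33 ± 0.27, adjusted p = 0.58). Without Th1 control 1 there was 1 member called higher, Myc (0.96, adjusted p = 0.0097), and without Th1 control 2 there was 1 called lower, Rrp1b (-1.03, adjusted p = 0.022).

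Across the 6 groups the highest mean was that of untreated Th17 cultures in 25 of 34 members, against 17.9% of all genes, that of Th1 cultures with acetate in 8 (21%) and that of Th17 cultures with acetate in 1 (14.4%), which was Rrp1b. The lowest mean was that of Treg cultures with acetate in 16 members (13.4%), untreated Treg cultures in 10 (20.4%), Th17 cultures with acetate in 7 (14.5%) and untreated Th1 cultures in 1 (13.6%). On the deposited signals untreated Th17 cultures were highest in 32 members, beside 52.7% of all genes, and with trimmed mean scaling in 24. Marker lists of other cell types also differed between untreated cultures. The B cell sum was 2436 to 2783 in Treg, 850 to 1418 in Th17 and 563 to 730 in Th1. Against Th1, Cd8a (3.56), Klrd1 (2.27), Ighm (2.05) and Kit (1.86) were called higher in Treg. In Th17 Cd8a (2.23), Klrd1 (1.83) and Kit (3.11) were higher and Cd68 lower (-1.88). No other tested gene of these lists was called, nor any between Th17 and Treg. The part of these markers was not tested. For Myc the means ran from 1725 in untreated Th17 through 1456 ± 31.3 in Th1 with acetate, 1394 ± 21.8 in untreated Treg, 1229 ± 68.8 in Treg with acetate and 1211 ± 699 in untreated Th1 to 1017 in Th17 cultures with acetate. The untreated Th1 arrays reached from 717 to 1705, a range that holds every other mean but that of untreated Th17 cultures, so neighbours of untreated Th1 in that order did not differ beyond its spread.

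The members' other probe sets gave a check on the choice of probe set. Of 36 further probe sets of 24 members 29 lay above the filter, and 24 of these had the same sign as the one used in Th17 cultures, 22 in Treg and 18 in Th1 cultures. Those of Dkc1 were at -1.17 and -1.55 in Th17 cultures, and those of Ncl above the filter at -0.75, -0.82 and -0.95. Those of Mybbp1a and Heatr1 above the filter were at -1.16 and -0.71. Myc, Utp20, Rrp9 and Gnl3 had 1 probe set each. Above the filter, signs in Th17 cultures disagreed in Ddx21, Ebna1bp2, Polr1a and Rrp1b.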

How the data were processed

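RNA was hybridised to Affymetrix arrays, named Mouse 430 2.0 in the labels of the Treg and Th1 samples. Each deposited number is the signal intensity of a probe set on an array. The submitters' processing notes name MAS5, and no version is given in the sources used here. Precision is limited by how many arrays there are.

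Of 45101 probe sets 34958 have a single gene symbol, 932 have more and 9211 have none listed, and only the first were used. Signals were taken as log2(signal + 3) and quantile normalized. Differences are on that scale and understate those of low genes. Genes with a mean log2 level of at least 3.60 (signal 9.11, the 40th percentile) were tested. One linear model of the 6 groups (8 residual degrees of freedom) covered the 14 arrays, with limma 3.58.1 in R 4.3.3, eBayes with trend and Benjamini-Hochberg adjustment over all 10916 genes. Every adjusted p is of this kind, unless an alternative is named. Errors are SE for log2 differences and SD for signals. The procedure was tested on simulated data with noise drawn independently for each gene, which does not cover members that move together.

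The 34 members, the gene lists and the tests were chosen with earlier results of these data known. Given with every array's value were Myc, the 6 members of smallest p per acetate comparison and the 4 per comparison of untreated cultures; Polr1a, Npm1, Ncl and Fbl were given with group means, and at most 4 called genes per list. Genes of other lists and cell type markers beyond this, and Rpl27a, were named after their values were seen. Comparisons that use the same control arrays are not independent. Members move together on single arrays, so counts of their signs or of arrays without overlap are not counts of independent results.

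Whether replicate numbers pair the arrays is not stated, and the main model did not use them. Same-numbered control and acetate arrays correlated at 0.153, 0.16 and -0.0631 in Th17, over deviations from group means. The value was 0.0638 for the Treg pairs and -0.159 for the Th1 pairs, where 2 arrays per group force both pairs to be equal. Arrays of unlike number were not compared, so these values do not settle whether the arrays were paired. The labels name no batch. The 3-prime control of 18S RNA had signals of 2809 to 4149 on Th17 arrays, 298 to 1576 on Th1 arrays, and 3134 on Treg control 1 against 506 to 816 on the other Treg arrays; its part in the differences was not tested. The 3-prime over 5-prime ratio on Treg arrays was 1.42 and 1.33 in controls and 1.31 and 1.36 with acetate for Actb, and 1.22 and 1.23 against 1.02 and 1.03 for Gapdh. Alternatives were the pseudocount, scaling, filter, probe set, a replicate block and each array left out; a group left with 1 array was assumed to vary like the others.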

Additional observations from a re-analysis of the deposited data

How the results depend on the processing

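The number of lower members in Th17 cultures was 8 with pseudocounts of 1 and 10.8, trimmed mean scaling, no filter and averaged probe sets, 7 with the replicate block and 20 on the deposited signals; without single arrays it ranged from 3 to 16. For the mean of subsets the lower members were 2 with trimmed mean scaling, no filter, averaged probe sets or the replicate block (1 to 10 without single arrays), and the higher ones 0 with averaged probe sets (1 to 3). Without single arrays the higher members ranged from 0 to 2 in Treg, 0 to 4 in Th1 cultures, 0 to 13 for untreated Th17 against Th1, 0 to 1 for Treg against Th1 and 0 to 9 for Th17 against Treg, and the lower ones from 0 to 1 in Treg cultures and for untreated Treg against Th1. The F test ranged from 0 to 2. Other changes were 1 higher in Treg cultures and 1 lower for untreated Treg against Th1 (averaged probe sets), and 1 higher in Th1 cultures (deposited signals, and also a crossed replicate block, chosen after seeing the data). For untreated Th17 cultures 28 were higher against Th1 on the deposited signals and 1 with trimmed mean scaling, and against Treg 19 on the deposited signals and 1 with the replicate block; the F test gave 1 on the deposited signals. The replicate block ended the calls of Gnl3 in Th17 cultures and of Rrp9 and Rrp1b in untreated Th17 against Treg cultures (adjusted p = 0.094 and 0.056). Calls over all genes changed with left-out arrays and other settings as well, so a changed count of members is not particular to them. The cause of these changes was not tested.

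Over 62 results for named members, settings other than left-out arrays kept side and sign in 403 of 434 cases. With 1 array left out this held in 754 of 868, with 60 calls lost, 39 gained and 15 signs turned, and 19 of the 62 results were the same in every alternative. Signs turned for Polr1a in Th1 cultures (-0.040, averaged probe sets) and Npm1 in Th1 (-0.11) and for the mean (0.053, both trimmed mean scaling). Other signs turned without 1 array, where the values ranged as follows. In Treg cultures Npm1 ran from -0.048 to 0.22 and Fbl from -0.46 to 0.011. In Th1 cultures Myc ran from -0.23 to 1.02, Rrp9 from -0.077 to 1.26, Polr1a from -0.14 to 0.59, Npm1 from -0.050 to 0.12, Ncl from -0.17 to 0.53 and Fbl from -0.44 to 0.47. For the mean Myc ran from -0.39 to 0.024 and Npm1 from -0.087 to 0.0015. For untreated Treg against Th1, Myc ran from -0.29 to 0.96, Nop2 from -1.14 to 0.14 and Tsr1 from -1.23 to 0.21.

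Limits: with 2 arrays in each Treg and Th1 group, and Th1 arrays that spread more than the acetate differences, the absence of calls there does not show that acetate left the members unchanged. Signals near the top of the scale compress differences.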
